A study of Mus musculus with 4 samples.

Results

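The 7 genes described here encode enzymes of cholesterol synthesis: Hmgcs1, Idi1, Fdps, Fdft1, Sqle, Lss and Cyp51. They were taken by name from the 27998 genes counted in each library, and each name stood on 1 row. All 7 make cholesterol and none takes it up, so uptake is described only through a separate list of genes. Levels were read in 4 single-cell libraries of sorted alveolar epithelial type 2 (AT2) cells of the mouse lung, which make surfactant. In all 4 groups the mice were Sftpc-creER;Rosa26-mTmG, in which Cre under control of the Sftpc promoter, once activated by tamoxifen, leaves AT2 cells and their descendants green, and all mice had received tamoxifen. The GFP+ CD45- CD31- cells of 3 mice were pooled for each library, so a group is 1 library and animals cannot be separated within it. The injury was a single intratracheal dose of bleomycin, 0.8 U per kg of body weight.

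The groups were 12-month-old mice at day 30 after bleomycin, 3-month-old mice at day 30 after bleomycin, 12-month-old mice given PBS and taken at day 0, and 3-month-old mice given PBS and taken at day 0. Treatment and day of harvest changed together and cannot be told apart. Cells were used if they had at least 500 genes, at most 20% mitochondrial transcripts and at least 5% of their transcripts from Sftpc, the surfactant protein C gene. This kept 2450 of 3006 barcodes in the 12-month bleomycin library, 2299 of 2646 in the 3-month bleomycin library, 2570 of 2807 in the 12-month PBS library and 2308 of 2452 in the 3-month PBS library. All 10 AT2 markers were detected in every library. The 9 other than Sftpc, on which the cells had been chosen, summed to 63420, 63710, 59010 and 53820 CPM (counts scaled to the library total) in the same order. The kept cells held 31849343, 20832613, 13289829 and 10896642 counts of unique molecular identifiers (UMIs) in that order, and both bleomycin libraries were deeper than both PBS libraries. Libraries shared 7 to 14 cell barcodes per pair, at most 0.571% of a library's cells. With 1 library per group no test between groups was made. The 95% intervals below, exact Poisson for levels, exact conditional binomial for ratios and Clopper-Pearson for shares, cover counting error only and not the spread between animals or libraries.

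Cholesterol is built from acetyl-CoA by way of mevalonate, isoprenoid units, squalene and lanosterol. When sterols in the endoplasmic reticulum run low, the factors SREBP-1 and SREBP-2 are carried to the Golgi by SCAP, released by proteolysis, and switch on the genes of synthesis and uptake, while the INSIG proteins hold them back when sterol is plentiful. AT2 cells need cholesterol and phospholipid for the surfactant they store in lamellar bodies.

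Of the 7 genes, 4 had a promoter in the RefSeq table used here (GRCm38.p6), and these 4 sequences are shown because they include the gene with the largest difference after bleomycin (Idi1) and the gene that was not lower at either age (Lss). Each runs 5′ to 3′ on the gene's own strand, from 250 bases before the transcription start to 50 bases after it, and the capitals mark motif matches on either strand. The motifs were TCACNCCAC for SREBP, CCAAT for the factor NF-Y and GGGCGG for Sp1, 3 factors known to act together at sterol-regulated promoters. The windows are chr13:119690101-119690400 on the plus strand for Hmgcs1, chr13:8885356-8885655 on the plus strand for Idi1, chr10:76531355-76531654 on the plus strand for Lss and chr5:4104648-4104947 on the minus strand for Cyp51.
Hmgcs1: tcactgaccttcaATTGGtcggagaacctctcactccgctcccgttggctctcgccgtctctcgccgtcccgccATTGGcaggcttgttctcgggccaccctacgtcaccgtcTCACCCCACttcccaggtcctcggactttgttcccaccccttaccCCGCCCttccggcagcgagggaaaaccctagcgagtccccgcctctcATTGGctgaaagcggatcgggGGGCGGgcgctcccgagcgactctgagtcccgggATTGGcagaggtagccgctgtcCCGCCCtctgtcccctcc
Idi1: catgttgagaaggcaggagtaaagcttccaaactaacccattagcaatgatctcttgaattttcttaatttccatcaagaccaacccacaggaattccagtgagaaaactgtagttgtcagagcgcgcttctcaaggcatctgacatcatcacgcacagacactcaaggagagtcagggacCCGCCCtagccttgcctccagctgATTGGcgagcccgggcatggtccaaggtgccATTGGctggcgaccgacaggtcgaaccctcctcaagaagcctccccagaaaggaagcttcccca
Lss: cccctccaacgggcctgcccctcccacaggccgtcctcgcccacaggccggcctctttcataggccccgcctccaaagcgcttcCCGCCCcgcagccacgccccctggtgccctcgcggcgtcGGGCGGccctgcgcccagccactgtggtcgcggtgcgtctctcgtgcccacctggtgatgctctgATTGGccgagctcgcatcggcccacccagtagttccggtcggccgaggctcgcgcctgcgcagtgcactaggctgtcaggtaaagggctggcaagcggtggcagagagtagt
Cyp51: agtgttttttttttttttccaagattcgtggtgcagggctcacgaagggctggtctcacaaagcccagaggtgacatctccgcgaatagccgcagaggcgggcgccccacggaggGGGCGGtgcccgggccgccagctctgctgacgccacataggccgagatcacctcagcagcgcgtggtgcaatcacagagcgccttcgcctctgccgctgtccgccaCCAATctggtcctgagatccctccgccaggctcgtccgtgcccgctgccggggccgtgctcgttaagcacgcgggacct

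The Hmgcs1 promoter held the SREBP match TCACCCCAC starting 137 bases before the transcription start, with 4 NF-Y matches and 3 Sp1 matches around it. No SREBP match of the form TCACNCCAC was found in the windows of Idi1, Lss or Cyp51. Other forms were not searched for, so these windows, and those of the genes counted below, may hold other SREBP sites. A SREBP match of this form was found in 1.24% of the 32851 promoters in the table. Idi1 had 2 NF-Y matches and 1 Sp1 match, Lss 1 and 2, and Cyp51 1 and 1. An NF-Y match was present in 4 of these 4 promoters and in 37.4% of all promoters, and an Sp1 match in 4 of 4 and in 35.7%. Among 14 other genes of cholesterol synthesis, 12 had a promoter in the table, of which 11 held an NF-Y match, 11 an Sp1 match and 0 the SREBP match. A gene with more than 1 promoter counted if any of them held the match. The shares over all promoters count each promoter on its own, so the units differ. Letters in these windows describe the sequence and do not show that a factor binds. Fdps, Fdft1 and Sqle had no entry in the table.

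On GRCm38 (GENCODE M21), all 7 are protein-coding genes. Hmgcs1 lies on chromosome 13 from 119690379 to 119708260 and Idi1 on the same chromosome from 8885501 to 8892451, both on the plus strand. Fdps is on chromosome 3 from 89093588 to 89101959 on the minus strand and Fdft1 on chromosome 14 from 63145150 to 63179578 on the minus strand. Sqle is on chromosome 15 from 59315077 to 59331192 on the plus strand, Lss on chromosome 10 from 76531588 to 76557138 on the plus strand and Cyp51 on chromosome 5 from 4081145 to 4104746 on the minus strand. Some share exon sequence with a neighbour: 774 of 4227 exon bases of Fdft1 overlap Ctsb and 166 of 4415 of Cyp51 overlap Akap9, both on the opposite strand, and 1124 of 4208 of Fdps overlap the predicted gene Gm43738 on the same strand. Whether the counting used strand is not given in the sources used here, so Fdft1 and Cyp51 carry that uncertainty. How reads in the stretch that Fdps shares with Gm43738 were counted is not given in them either. Ctsb was counted 13979 and 8116 times after bleomycin at 12 and 3 months and 2691 and 2244 times with PBS, Akap9 780, 638, 293 and 337 times and Gm43738 9, 4, 2 and 2 times in the same order. The paralog Idi2 had 0 counts in every library, so under 3 counts in each.

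Summed over the 7 genes, the level was 412 CPM (405 to 419) in the 12-month bleomycin library, 620 CPM (609 to 630) in the 3-month bleomycin library, 589 CPM (576 to 602) in the 12-month PBS library and 599 CPM (584 to 614) in the 3-month PBS library. In this sum 1 library was low and the other 3 lay close together. Fdps alone gave 196, 334, 277 and 228 CPM of it in that order, so the sum leans on Fdps. The genes differ in their order, which is given for each below. Hmgcs1 and Idi1 were lower in both bleomycin libraries than in both PBS libraries, while Fdps was highest in the 3-month bleomycin library. At 12 months the 7 genes had a median log2 ratio of bleomycin over PBS of -0.49, with 6 of 7 below 0, against a median of 0.10 over the 4701 genes compared. At 3 months the median was -0.19, with 4 of 7 below 0, against -0.01 over 4796 genes. A gene was called lower or higher when it differed at least 1.5-fold with an interval that leaves out equality, and the background is the share called among all genes that reached 20 CPM in either library. At 12 months 1 of the 7 (Idi1) was called lower, where 10.6% of all genes were, and 0 were called higher, where 18.5% were. At 3 months 1 of 7 (again Idi1) was lower against 11.1% of all genes and 0 higher against 8.99%. Lss was under 20 CPM in every library, so 6 of the 7 match the genes of the background. Over these 6 the median was -0.51 at 12 months and -0.27 at 3 months, with 1 called lower at each age. A share of 1 in 6 or 1 in 7 is near those backgrounds, so the count does not set the 7 genes apart. What the 12-month comparison shows is mostly differences smaller than 1.5-fold in one direction.

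**Figure D1:**
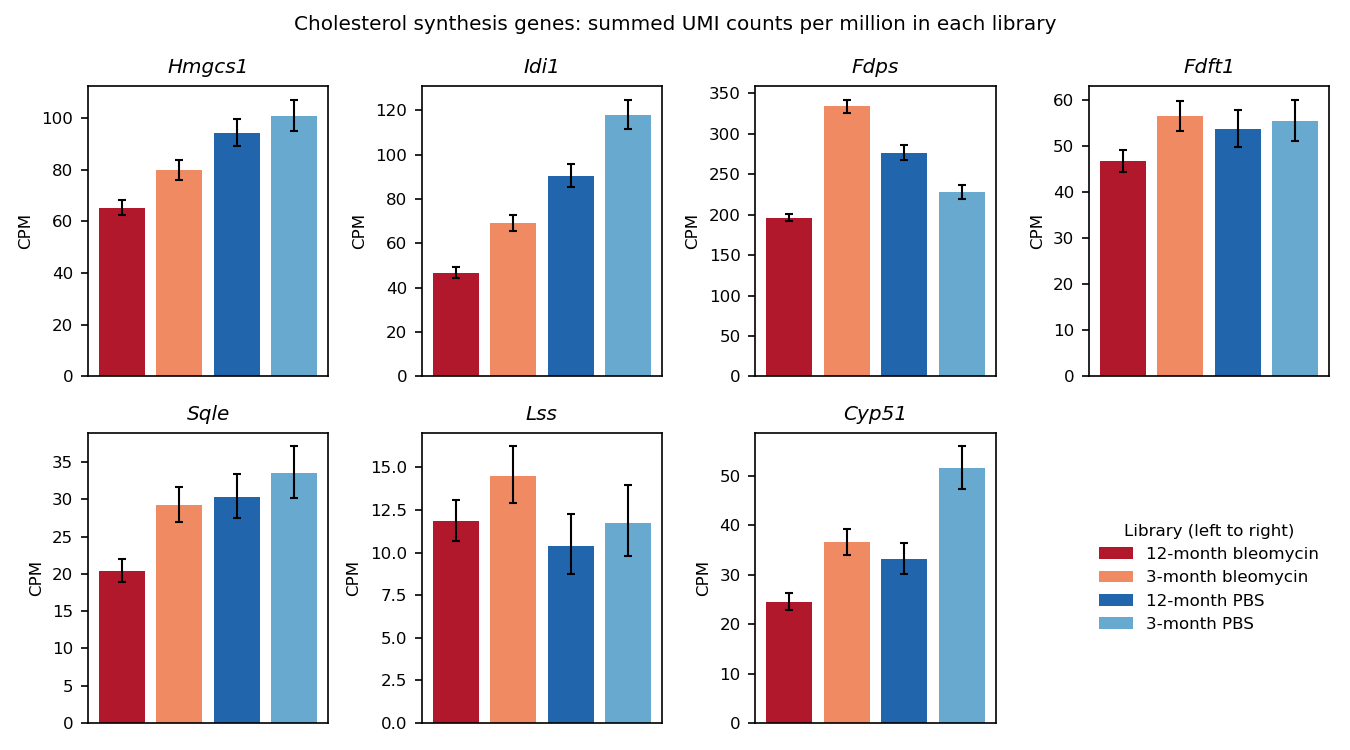
Level of each of the 7 genes in each library, in CPM from summed UMI counts (bars, linear axis from 0) with exact Poisson 95% intervals (lines). The 12-month bleomycin bar is the lowest of the 4 for every gene except Lss, and the 3-month bleomycin bar is the highest for Fdps (334 CPM).

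Hmgcs1 makes HMG-CoA, the substrate from which mevalonate is formed. It stood at 65.3 CPM in the 12-month bleomycin library, 79.8 CPM in the 3-month bleomycin library, 94.4 CPM in the 12-month PBS library and 100.9 CPM in the 3-month PBS library. Both bleomycin libraries were below both PBS libraries, and only the 2 PBS libraries had overlapping intervals. The log2 ratio of bleomycin over PBS was -0.53 (-0.63 to -0.43) at 12 months and -0.34 (-0.45 to -0.23) at 3 months. Over 12 against 3 months it was -0.29 (-0.38 to -0.19) after bleomycin and -0.10 (-0.21 to 0.02) with PBS.

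Idi1 interconverts the isoprenoid building blocks isopentenyl and dimethylallyl diphosphate. Its level was 46.7 CPM in the 12-month bleomycin library, 69.1 CPM in the 3-month bleomycin library, 90.4 CPM in the 12-month PBS library and 118 CPM in the 3-month PBS library, and no 2 neighbouring intervals overlapped. Bleomycin libraries were lower than PBS libraries at both ages, and 12-month libraries lower than 3-month libraries under both treatments. The ratio of bleomycin to PBS was 1.94-fold lower (1.79 to 2.09) at 12 months and 1.71-fold lower (1.58 to 1.84) at 3 months. After bleomycin the 12-month level was 1.48-fold lower (1.37 to 1.59) than the 3-month level, and with PBS 1.30-fold lower (1.21 to 1.41).

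Fdps makes farnesyl diphosphate, the last intermediate before the sterol and nonsterol branches part. It was counted at 196 CPM in the 12-month bleomycin library, 334 CPM in the 3-month bleomycin library, 277 CPM in the 12-month PBS library and 228 CPM in the 3-month PBS library. Its direction was opposite at the 2 ages: the bleomycin library was the lowest of the 4 at 12 months and the highest of the 4 at 3 months. The log2 ratio of bleomycin over PBS was -0.49 (-0.55 to -0.43) at 12 months and 0.55 (0.49 to 0.62) at 3 months, a difference of -1.05 with a counting interval of -1.13 to -0.96. Fdps was also the 1 gene of the 7 called lower at 12 than at 3 months after bleomycin, at 1.70-fold (1.64 to 1.76), where 2.83% of all genes were called lower and 4.6% higher.

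Fdft1 joins farnesyl units into squalene, the first step committed to sterols. It was at 46.9 CPM in the 12-month bleomycin library, 56.5 CPM in the 3-month bleomycin library, 53.7 CPM in the 12-month PBS library and 55.5 CPM in the 3-month PBS library. Only the 12-month bleomycin library stood below the others, and the other 3 intervals overlapped. Its log2 ratio of bleomycin over PBS was -0.20 (-0.33 to -0.07) at 12 months and 0.03 (-0.12 to 0.17) at 3 months. The overlap with Ctsb applies here, and its part in these values was not tested.

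Sqle, squalene epoxidase, carries out a rate-limiting oxygen-dependent step. Its level was 20.4 CPM in the 12-month bleomycin library, 29.3 CPM in the 3-month bleomycin library, 30.3 CPM in the 12-month PBS library and 33.5 CPM in the 3-month PBS library. Again the 12-month bleomycin library was the low one, and the other 3 overlapped in sequence. The log2 ratio of bleomycin over PBS was -0.57 (-0.75 to -0.39) at 12 months, just short of the 1.5-fold line, and -0.19 (-0.38 to -0.003) at 3 months.

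Lss folds oxidosqualene into lanosterol. It was the lowest of the 7 in counts, with 11.8 CPM in the 12-month bleomycin library, 14.5 CPM in the 3-month bleomycin library, 10.4 CPM in the 12-month PBS library and 11.7 CPM in the 3-month PBS library, and each interval overlapped that of its neighbour. It was the 1 gene above 0 in both bleomycin comparisons, with log2 ratios of 0.19 (-0.10 to 0.48) at 12 months and 0.30 (0.0005 to 0.61) at 3 months. The first interval includes equality and the second barely leaves it out.

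Cyp51 removes a methyl group from lanosterol, the first step after the ring is closed. It stood at 24.5 CPM in the 12-month bleomycin library, 36.5 CPM in the 3-month bleomycin library, 33.2 CPM in the 12-month PBS library and 51.5 CPM in the 3-month PBS library. The 3-month PBS library was the highest, the 12-month bleomycin library the lowest, and the 2 in between overlapped. The log2 ratio of bleomycin over PBS was nearly the same at both ages, -0.44 (-0.61 to -0.26) at 12 months and -0.50 (-0.65 to -0.34) at 3 months. With PBS, Cyp51 was 1.55-fold lower (1.37 to 1.76) at 12 than at 3 months, the 1 call of the 7 in that comparison, where 3.73% of all genes were called lower and 2.08% higher. Over the alternatives that ratio lay between -0.68 and -0.53 on the log2 scale, short of 1.5-fold in 4 of them, leaving aside 1 alternative that kept few cells.

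**Figure D2:**
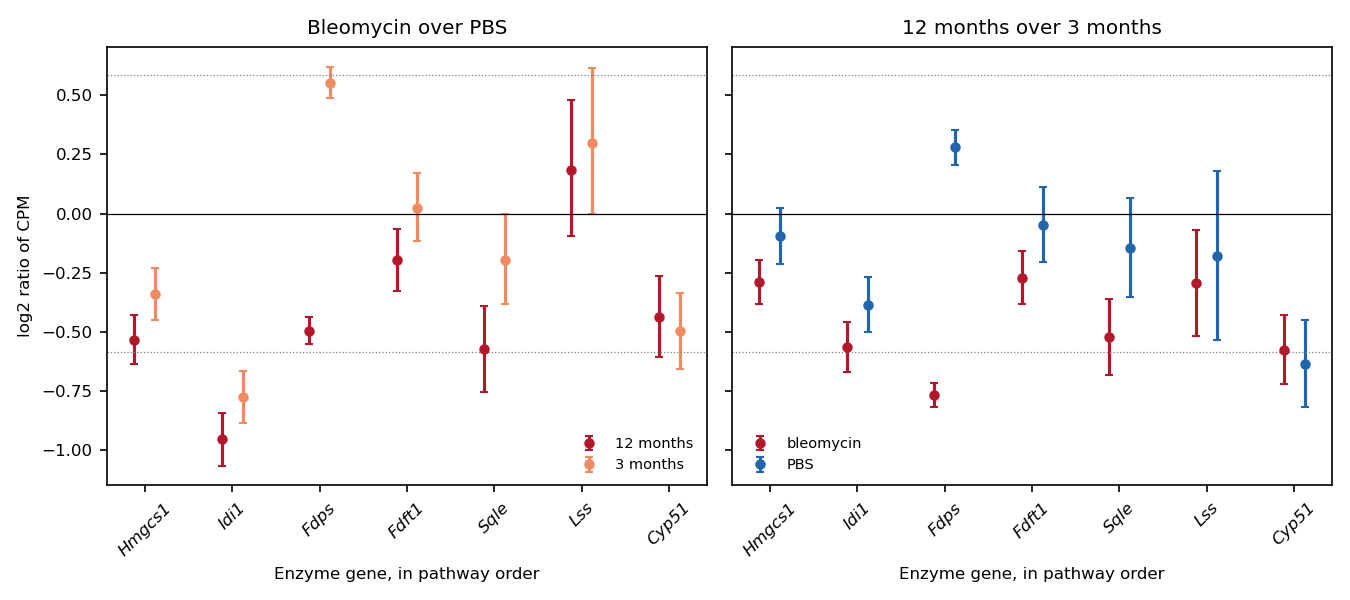
Log2 ratio of CPM for each of the 7 genes in pathway order, with exact 95% counting intervals: bleomycin over PBS at 12 months (dark) and 3 months (light) on the left, 12 over 3 months after bleomycin (red) and with PBS (blue) on the right. Dotted lines mark 1.5-fold; Fdps lies at -0.49 at 12 months and 0.55 at 3 months, and all 7 genes lie below 0 in the age comparison after bleomycin.

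Between ages the 7 genes had a median log2 ratio, 12 over 3 months, of -0.52 after bleomycin, with all 7 below 0, against 0.004 over the 4586 genes compared. With PBS the median was -0.14, with 6 of 7 below 0, against -0.11 over 4526 genes. The 4 comparisons are not independent, since the 12-month bleomycin library enters 2 of them and every other library also enters 2.

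The 12-month bleomycin library also stood apart in transcripts of immune cells. Its 5 B or plasma cell markers summed to 146 CPM, against 42.8 CPM in the 3-month bleomycin, 27.2 CPM in the 12-month PBS and 26.8 CPM in the 3-month PBS library. Jchain alone gave 100.3 CPM there and is at 0 in the 3-month PBS library. The 5 neutrophil markers summed to 112 CPM there and to between 8.06 and 16.3 CPM elsewhere, and the 6 T or NK cell markers to 18.2 CPM there and at most 3.99 CPM elsewhere, with all 6 at 0 in the 3-month PBS library. The 9 macrophage markers other than Lyz1, a gene that mouse AT2 cells also express, summed to 55.3 CPM in the 12-month bleomycin, 17.7 CPM in the 3-month bleomycin, 14.5 CPM in the 12-month PBS and 5.42 CPM in the 3-month PBS library, where 6 of the 10 were at 0. Markers of nonimmune cells did not set this library apart in that way. The 7 mesenchymal markers summed to 9.11 and 10.0 CPM after bleomycin at 12 and 3 months, and to 0.301 and 0.551 CPM with PBS. In the same order, the ciliated markers summed to 96.4, 185, 195 and 284 CPM. The endothelial markers summed to 6.62, 10.4, 8.43 and 3.03 CPM, and the mesothelial markers to 4.43, 4.51, 0.527 and 0 CPM. The 10 transitional alveolar markers, genes of AT2 cells on the way to AT1 cells, summed to 2024 and 1581 CPM after bleomycin at 12 and 3 months, and to 768 and 1155 CPM with PBS. A filter took out cells with 2 or more UMIs of the 41 other-cell markers under 20 CPM in every library. Without these cells the median log2 ratio of the 7 genes was -0.47 at 12 months and -0.19 at 3 months. Both values were close to those over all kept cells. The filter did not use Jchain, S100a8, S100a9, Retnlg, Cd79b, Lyz1, Tppp3 or Dynlrb2. It therefore cannot show how the transcripts of these genes bear on the ratio, which was not tested. With all 49 markers used, only 21 to 59 cells per library were left, and the medians were -0.31 and 0.18. Without cells with a UMI of Cldn4, a transitional marker, the median was -0.49 and -0.19.

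The 3-month PBS library stood apart in heat-shock transcripts: after thinning, 52.4% of its cells had a UMI of Hspa1a or Hspa1b, against 3.47% in the 12-month bleomycin, 3.52% in the 3-month bleomycin and 2.06% in the 12-month PBS library. Within the 3-month PBS library the 7 genes summed to 594 CPM (567 to 622) in cells with such a UMI and 626 CPM (597 to 656) in cells without. An alternative left out cells with such a UMI before thinning, a set that is larger and depends on depth. This kept 2135 of 2450 cells in the 12-month bleomycin and 2088 of 2299 in the 3-month bleomycin library. It kept 2480 of 2570 in the 12-month PBS and 913 of 2308 in the 3-month PBS library. The median log2 ratio of bleomycin over PBS was then -0.15 at 3 months and -0.47 at 12 months. Cells that failed the Sftpc limit, of which 543, 325, 175 and 86 were left out in the order used above, held the 7 genes at 239, 271, 258 and 435 CPM.

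Cells were then compared one by one after thinning each to 3000 UMIs, which left 2450, 2244, 2328 and 1952 cells in the same order and dropped 0, 55, 242 and 356 shallower ones. The mean number of UMIs of the 7 genes per cell was 1.34 in the 12-month bleomycin, 1.89 in the 3-month bleomycin, 1.79 in the 12-month PBS and 1.83 in the 3-month PBS library. As in the CPM sums, Fdps weighs most in this number. Cells with no UMI of any of the 7 made up 40.4% (38.5 to 42.4) in the 12-month bleomycin library, 28.8% (26.9 to 30.7) in the 3-month bleomycin, 26.4% (24.6 to 28.2) in the 12-month PBS and 29.3% (27.2 to 31.3) in the 3-month PBS library. The lower sum in the 12-month bleomycin library thus came with more cells at 0. It also came with fewer cells at the upper end: 9.88% of cells (8.72 to 11.1) had 4 or more UMIs in the 12-month bleomycin, 17.7% (16.2 to 19.4) in the 3-month bleomycin, 15.6% (14.2 to 17.2) in the 12-month PBS and 17.0% (15.3 to 18.7) in the 3-month PBS library.

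**Figure D3:**
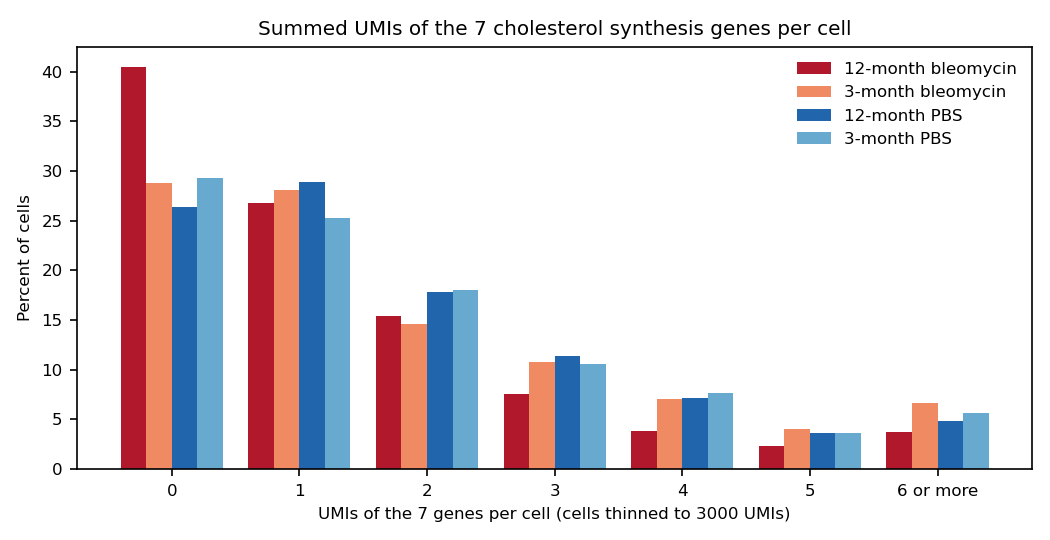
Percent of cells by number of UMIs of the 7 genes together, in cells thinned to 3000 UMIs, for each library (bars, linear axis from 0). The 12-month bleomycin library has the tallest bar at 0 UMIs (40.4%), and the other 3 lie between 26.4% and 29.3%.

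Fdps, the gene with the most counts, shows what depth does to such shares. Without thinning, 72.4% of cells had an Fdps UMI in the 12-month bleomycin, 75.5% in the 3-month bleomycin, 62.4% in the 12-month PBS and 51.4% in the 3-month PBS library. After thinning the shares were 38.8%, 50.2%, 48.6% and 40.6% in that order, which is the order of the CPM. In the cells left out for low Sftpc, unthinned shares were 38.1%, 36.0%, 26.9% and 45.3%, at median depths of 7439, 5161, 3524 and 3607.5 UMIs, against 12520, 8552, 5137.5 and 4563.5 UMIs in kept cells. Every cell type makes isoprenoids, so no cell type in these libraries should lack Fdps and serve as a background. For the other 6 genes, thinned shares ran from 2.62% (Lss, 12-month PBS) to 28.5% (Idi1, 3-month PBS).

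Across single cells, pairs of the 7 genes went together only weakly. Pearson's r between pairs in thinned cells had a median of 0.106 in the 12-month bleomycin, 0.107 in the 3-month bleomycin, 0.0724 in the 12-month PBS and 0.0859 in the 3-month PBS library, in counts that are mostly 0, 1 or 2. Each gene against the sum of the other 6 had r between 0.0797 (Lss, 12-month PBS) and 0.342 (Fdps, 12-month bleomycin). Over 3606 other genes at 20 CPM or more in every library, the mean r with the sum of the 7 had a median of 0.0004 and a 99th percentile of 0.0951. That background is for r with a sum and not for r of a pair. All these r values are descriptions over cells that share a library.

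The gene most like the sum was Dbi, which encodes the acyl-CoA-binding protein, with r between 0.232 and 0.346 in the 4 libraries. Scd1 (mean r 0.290) and Scd2 (0.197) encode desaturases that make monounsaturated fatty acids, and Fabp5 (0.257) a fatty-acid-binding protein. Npc2 (0.229) encodes a lysosomal protein of cholesterol transfer. Sterol genes among the 10 highest included Msmo1 (0.230), Insig1 (0.196), Pmvk (0.190) and Nsdhl (0.166), which were on the lists of the pathway examined here. Dbi stood at 1120 CPM in the 12-month bleomycin, 1346 CPM in the 3-month bleomycin, 1534 CPM in the 12-month PBS and 1467 CPM in the 3-month PBS library. Fabp5 stood at 1398, 2075, 2580 and 2104 CPM in that order, so that both were lowest in the 12-month bleomycin library. Npc2 did not share that order, at 7898, 7668, 7770 and 6871 CPM.

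Lists of related genes were counted first over their members at 20 CPM or more in either library, the level of the background shares above. For bleomycin over PBS those shares were 10.6% of all genes lower and 18.5% higher at 12 months. At 3 months they were 11.1% lower and 8.99% higher. The lists were then counted over all members with at least 10 counts. No share over all genes is given at 10 counts, so those counts are not set against a background. Of 14 other genes of cholesterol synthesis, 10 reached 20 CPM at each age. Their median log2 ratio of bleomycin over PBS was -0.47 at 12 months, with 4 called lower and 0 higher, and -0.27 at 3 months, with 3 lower and 0 higher. Over all 14 the medians were -0.40 and -0.08, with 4 lower and 1 higher at 12 months and 4 lower and 0 higher at 3 months. Pmvk, phosphomevalonate kinase, was low in both bleomycin libraries, at 76.5 and 86.0 CPM at 12 and 3 months, against 174.6 and 208 CPM with PBS, with ratios of -1.19 (-1.27 to -1.11) and -1.28 (-1.37 to -1.19). Msmo1, a sterol C4-methyl oxidase, was at 42.5 and 60.7 CPM after bleomycin and 79.8 and 87.4 CPM with PBS, a ratio of -0.91 (-1.03 to -0.79) at 12 months and -0.53 (-0.65 to -0.40) at 3 months.

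Of the 7 genes of SREBP control, 6 reached 20 CPM. Their median was -0.60 at 12 months, with 3 called lower, and -0.36 at 3 months, with 2 called lower. Over all 7 the medians were -0.51 and -0.32, with the same counts and with 7 of 7 below 0 at 12 months. Srebf2, which encodes SREBP-2, was at 27.8 CPM in the 12-month bleomycin, 41.1 CPM in the 3-month bleomycin, 67.2 CPM in the 12-month PBS and 64.6 CPM in the 3-month PBS library, with ratios of -1.27 (-1.41 to -1.14) at 12 months and -0.65 (-0.80 to -0.51) at 3 months. Insig1, itself a SREBP target, was at 53.1, 102.6, 123.6 and 158.4 CPM in that order, with ratios of -1.22 (-1.32 to -1.12) and -0.63 (-0.72 to -0.53). Scap, the escort of the SREBPs, had ratios of -0.68 (-0.88 to -0.47) and -0.39 (-0.60 to -0.19). Srebf1, which encodes SREBP-1, was at 50.9, 87.9, 72.6 and 83.2 CPM, so its ratio was -0.51 (-0.63 to -0.40) at 12 months and 0.08 (-0.04 to 0.20) at 3 months.

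Of the genes for cholesterol uptake and transfer, 5 reached 20 CPM at 12 months, with a median of -0.78, 3 called lower and 0 higher, and 6 at 3 months, with a median of -0.45, 1 lower and 0 higher. With the members at lower levels included, the median was 0.02 at 12 months, with 3 lower and 2 higher of 12, and -0.25 at 3 months, with 1 lower and 2 higher of 11. Npc1, the lysosomal cholesterol transporter, was at 46.3 CPM in the 12-month bleomycin, 80.8 CPM in the 3-month bleomycin, 97.1 CPM in the 12-month PBS and 116 CPM in the 3-month PBS library, with ratios of -1.07 (-1.18 to -0.96) at 12 months and -0.52 (-0.63 to -0.42) at 3 months. Vldlr, a lipoprotein receptor, had ratios of -0.78 (-0.98 to -0.59) and -0.54 (-0.77 to -0.29), and Stard4, a sterol carrier, -0.54 (-0.78 to -0.30) and -0.38 (-0.62 to -0.14).

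Of the genes for export, storage and oxysterols, 4 reached 20 CPM at 12 months (median -0.83, 2 lower and 0 higher) and 5 at 3 months (median -0.15, 1 lower and 1 higher). Over the 8 with at least 10 counts at 12 months the median was -0.19, with 2 lower and 1 higher, a gene under 1 CPM in both libraries; over 6 at 3 months it was -0.11, with 1 lower and 2 higher. Apoe, the apolipoprotein that carries cholesterol out of cells, was at 504 CPM in the 12-month bleomycin, 1018 CPM in the 3-month bleomycin, 1237 CPM in the 12-month PBS and 631 CPM in the 3-month PBS library. Like Fdps, it was lower with bleomycin at 12 months (-1.30, -1.33 to -1.26) and higher at 3 months (0.69, 0.65 to 0.73). Nceh1, a cholesteryl ester hydrolase, was lower at both ages (-1.38 and -0.84). Soat1, which esterifies cholesterol, had -0.37 (-0.44 to -0.29) and -0.08 (-0.16 to -0.001), and Nr1h3, the sterol receptor LXR alpha, 0.03 (-0.20 to 0.26) and -0.21 (-0.44 to 0.03).

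The nonsterol isoprenoid branch, which uses farnesyl diphosphate for ubiquinone, dolichol and protein prenylation, had 2 genes at 20 CPM or more, with medians of 0.08 at 12 months and 0.02 at 3 months and 0 called at either age: Coq2, of ubiquinone synthesis, had 0.07 (-0.13 to 0.28) at 12 months and 0.26 (0.01 to 0.51) at 3 months, and Nus1, of dolichol synthesis, 0.10 (-0.07 to 0.27) and -0.22 (-0.41 to -0.02). Over all 6, 0 were called lower and 3 higher at 12 months (median 0.53) and 0 lower and 1 higher at 3 months (median 0.31), and each of those called was under 6 CPM in both libraries.

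Fatty acid synthesis, a branch under SREBP-1, had 9 genes at 20 CPM or more, with a median of -0.32 at 12 months, 3 lower and 1 higher, and 0.04 at 3 months, 0 lower and 1 higher. Over 10 genes with at least 10 counts the medians were -0.18 and 0.05, with 3 lower and 2 higher at 12 months and 0 lower and 2 higher at 3 months. Scd1 had the lowest ratio at 12 months, with 3020 CPM after bleomycin against 6232 CPM with PBS, a ratio of -1.05 (-1.06 to -1.03), and was at 5851 against 5615 CPM at 3 months (0.06, 0.05 to 0.07). Acaca, which makes malonyl-CoA, had -0.88 (-1.01 to -0.74) and -0.58 (-0.73 to -0.43), and Acly, which supplies cytosolic acetyl-CoA to both pathways, -0.66 (-0.72 to -0.59) and -0.37 (-0.44 to -0.30). Elovl1, an elongase of very long chains, was higher at both ages, by 0.74 (0.70 to 0.77) and 1.13 (1.10 to 1.17).

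**Figure D4:**
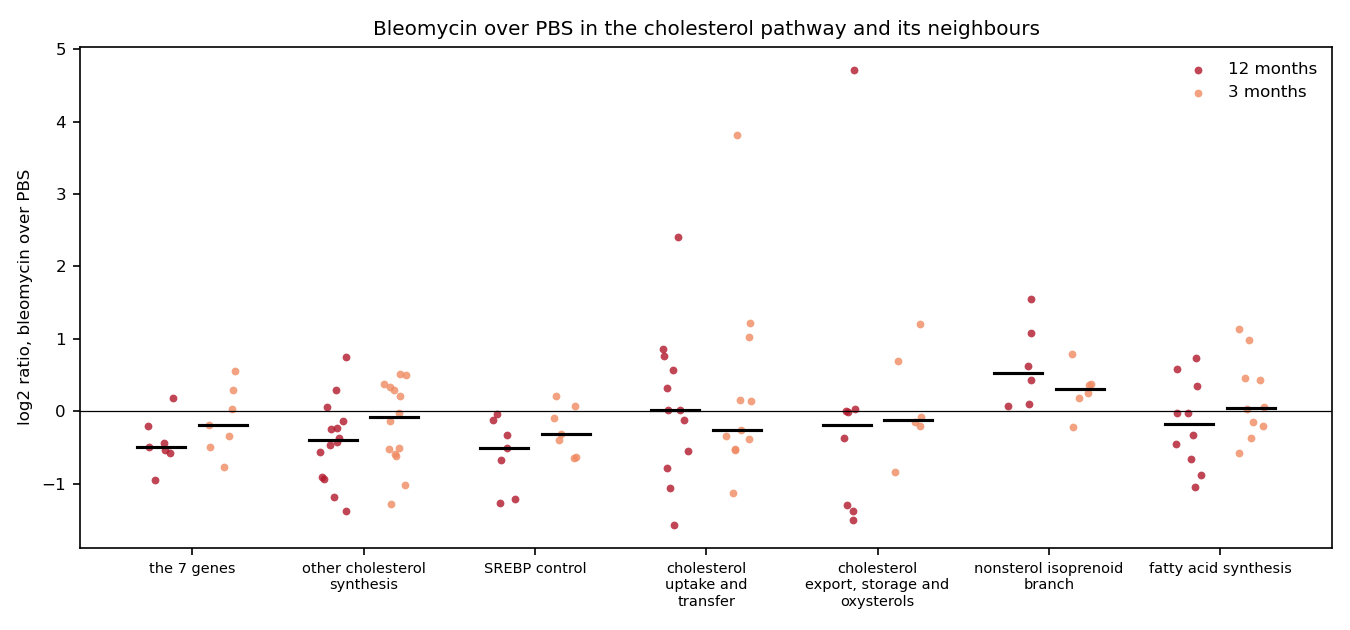
Log2 ratio of bleomycin over PBS for every gene with at least 10 counts in the 2 libraries, by list, at 12 months (dark points) and 3 months (light points), with list medians as black lines. The ratio of a gene with 0 counts in a library depends on the prior count. At 12 months the medians are -0.49 for the 7 genes, -0.40 for the other synthesis genes, -0.51 for SREBP control and 0.53 for the nonsterol branch, 4 of whose 6 genes are under 20 CPM.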

How the data were processed

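The deposited values are raw UMI counts per gene and cell barcode, made with the 10x Genomics 3′ kit per the labels' protocols and, per the submitters' processing notes, with Cell Ranger, of a version not named there, on mm10; those notes also name Seurat 3.2.2. The kit counts transcript ends, so levels are compared between libraries for 1 gene and not between genes.

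Counts were summed over the kept cells of each library and scaled to CPM (Python 3.11.15, numpy 2.4.6, scipy 1.17.1, pandas 2.3.3, figures with matplotlib 3.10.9). In the order 12-month bleomycin, 3-month bleomycin, 12-month PBS and 3-month PBS, 1 count equals 0.0314, 0.048, 0.0752 and 0.0918 CPM. Log2 ratios use a prior of 0.5 counts. Setting genes with 0 counts in a library to the floor of 3 counts left every list median as it was. The intervals of ratios and the calls were checked on simulated data. Scrublet (in scanpy 1.11.5) scored doublets at a rate of 0.8% per 1000 barcodes and these stayed in; 62, 51, 62 and 46 of the kept cells, in the same order, were called and left out in an alternative.

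The 7 genes, the lists and the markers were chosen with earlier results of these data known. Named beside the 7 are up to 4 genes per list with the largest absolute log2 ratio of bleomycin over PBS at either age among those at 20 CPM or more in at least 1 library, and the 10 genes with the highest mean r with the sum of the 7. Some genes this rule picks are counted with their lists but not reported here by name. The alternatives were other scalings and cell filters, called doublets or marker-positive cells left out, cells weighing the same or thinned, and other limits on fold and level. Samples were grouped by the age, treatment and day in the labels.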

Additional observations from a re-analysis of the deposited data

Results flagged for a closer look

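Of the 44 genes among the 7 and the pathway lists that reached 20 CPM in any library, 4 (9.09%) had a bleomycin over PBS difference of opposite sign at the 2 ages, each with a counting interval that leaves out 0 at both. Over all 5039 genes at that level, 291 (5.77%) did. With 1 library per age and treatment, the difference between the ages was not tested. For Fdps, the log2 ratio was -0.49 at 12 months and 0.55 at 3 months, a difference of -1.05. For Apoe it was -1.30 and 0.69, a difference of -1.98, and here the PBS libraries themselves differed by age, at 1237 CPM at 12 months and 631 CPM at 3 months. Scd1 had -1.05 and 0.06, a difference of -1.10, the 3-month value being small. Nsdhl, an enzyme of sterol demethylation, had -0.23 and 0.29, a difference of -0.52.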

How the results depend on the processing

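No paired analysis was possible because each group is 1 library. Over 13 of 14 alternatives, the 28 log2 ratios of the 7 genes kept their sign in 357 of 364 values; the 7 that changed were of Hmgcs1 and Fdft1, between -0.01 and 0.07, and none was a called one. Idi1 ranged from -1.04 to -0.83 at 12 months and from -0.89 to -0.64 at 3 months, and Fdps from -0.58 to -0.37 and from 0.46 to 0.64, in these 13.

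The median over the 7 at 12 months moved to -0.58 with median-of-ratios scaling, -0.38 with thinned cells and -0.43 with every cell weighing the same. Several genes lie near 1.5-fold, so the counts called moved from 1 easily. At 12 months 3 were lower with median-of-ratios scaling and 2 with Sftpc at 10% or more, no Sftpc limit, thinned cells, or cells with Cldn4 or low other-cell markers left out. Between ages after bleomycin 3 were lower without the 20 most abundant genes, Cldn4 cells or other-cell marker cells, and 2 without Sftpc in the total, without called doublets, with no Sftpc limit, the strict cell filter or thinned cells. Between ages with PBS 0 were lower with median-of-ratios scaling, without the 20 most abundant genes, with Sftpc at 10% or more, or without Hspa1a or Hspa1b cells. At 3 months 1 (Fdps) was higher without the 20 most abundant genes or Sftpc in the total and with cells weighing the same. With a 2-fold limit 0 were called in any comparison. The share of all genes called under each alternative is not given here, so these counts are not set against a background. Median-of-ratios scaling put the median over all genes at -0.01 between ages with PBS, against -0.11 in CPM. The cause of these moves was not tested.

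The other alternative, which left out cells with 2 or more UMIs of any other cell type's marker, kept only 25, 22, 59 and 21 cells in the 12-month bleomycin, 3-month bleomycin, 12-month PBS and 3-month PBS libraries, because 8 of the 49 markers, among them Lyz1, Cd79b and Tppp3, stand at 20 CPM or more. There 11 of the 28 ratios changed sign, and the median over the 7 was -0.31 at 12 months, 0.18 at 3 months, 0.79 between ages after bleomycin and -0.53 with PBS. At 3 months 2 were called lower, at 12 months 0 and between ages after bleomycin 0. Among the genes named, the called ratio of Scap reversed (1.52 between ages after bleomycin). The same alternative with the 41 low markers, and the one on Hspa1a or Hspa1b, were chosen after seeing the data.

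Lss, with 128 to 377 counts per library, has the widest intervals, and depth limits it most.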
